A study of Mus musculus with 4 samples.

Results

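This account covers 42 mouse genes of the Fanconi anaemia pathway, homologous recombination and the DNA damage checkpoint. A gene was included when it stood on a list of names and its reads over the 4 libraries summed to 15 or more, and all 42 listed genes met this, out of 23420 genes in the count table and 15802 with such a total. The lowest total among them was that of Bard1, and no listed gene fell under the limit. RNA was sequenced from pancreatic β-cells sorted by FACS. There were 2 libraries labelled Bmal1 KO and 2 labelled Bmal1 heterozygous (Bmal1+/-), all from animals that carried DTA and were given doxycycline for 10 days to ablate β-cells, so each library holds the cells that remained. The labels used here do not give strain, sex, age, how the alleles were driven, or whether replicates were separate animals. Each p-value therefore measures how far these libraries spread, and the labels do not say whether that is a spread between animals. The KO-labelled replicates also differed from each other in the sex-linked transcripts Xist and Ddx3y, as given below.

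The Fanconi anaemia pathway removes crosslinks between DNA strands. A core complex with the ubiquitin ligase FANCL and its E2 enzyme UBE2T attaches ubiquitin to the FANCD2-FANCI complex, which then brings in nucleases and the machinery of homologous recombination. In recombination, broken ends are resected, BRCA1, PALB2 and BRCA2 prepare the resected strand for exchange, and joint molecules are resolved by helicases and structure-specific nucleases. The kinases ATM and ATR, with CHK1 and CHK2, hold the cell cycle while forks and breaks are repaired. Recombination works on replicated DNA, and many of its genes are transcribed mainly in S and G2 phases, whereas most adult β-cells do not divide.

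The labels and the libraries need these remarks first. Arntl, the gene better known as Bmal1, was at 75.8 and 65.6 (counts scaled to a common library size by TMM, as CPM) in KO-labelled libraries, against 23.0 and 14.98 CPM in heterozygous-labelled ones, so its RNA was higher under the KO label (log2 change 1.89, SE 0.24, edgeR adjusted p = 0.0175), and groups are named here by label only. Gene-level counts do not show whether a deleted part is missing. Totals were 31056116 to 38020488 counts per library. All 10 β-cell markers listed were tested. Their summed levels, mostly Ins2, were 235310 to 274100 CPM in KO-labelled libraries and 217670 to 276650 CPM in heterozygous-labelled ones. Past the threshold 3 of the 10 fell: Ucn3 (log2 change -2.04), G6pc2 (-0.96) and Slc30a8 (-0.92). Fitted levels were lower for 8 and higher for 2. At an unadjusted p under 0.05 in edgeR's test, 5 were lower and 0 higher. DESeq2 called 4 lower and limma-voom 3. Sums of other cell markers were as follows. The 12 stromal markers summed to 177 and 436 CPM in KO-labelled libraries, against 69.0 and 29.1 CPM in heterozygous-labelled ones, with 5 of 10 tested higher past the threshold. The 14 immune markers summed to 316 and 883 CPM under the KO label and 257 and 278 CPM under the heterozygous label, with 1 of 13 tested higher past the threshold. The 12 acinar markers summed to 169 and 76.9 CPM in KO-labelled libraries, against 59.3 and 23.8 CPM in heterozygous-labelled ones, with 0 of 10 past the threshold in edgeR's test, 4 higher at an unadjusted p under 0.05, 1 by DESeq2 and 0 by limma-voom, and Amy2a5 was at 0 in all libraries. The 8 other endocrine markers summed to 5405 and 9928 CPM in KO-labelled libraries, against 4948 and 5388 CPM in heterozygous-labelled ones (1 of 7 higher past the threshold), the 8 duct markers to 763 and 703 CPM in KO-labelled libraries, against 916 and 1014 CPM in heterozygous-labelled ones, and the 10 endothelial markers to 41.7 and 18.2 CPM in KO-labelled libraries, against 15.2 and 11.4 CPM in heterozygous-labelled ones. In edgeR's test 0 of 7 duct and 0 of 5 endothelial markers passed. At an unadjusted p under 0.05, 1 duct marker was lower (Krt7) and 2 were higher (Sox9 and Muc1), and 2 endothelial markers were higher. Krt7 set much of the duct sum, at 368 and 397 CPM in KO-labelled libraries, against 567 and 663 CPM in heterozygous-labelled ones. Of the 7 tested duct markers, 3 had a lower and 4 a higher fitted level under the KO label. DESeq2 called 1 duct marker lower, 1 higher and 2 endothelial markers higher, and limma-voom 1 duct marker lower and 0 endothelial. KO replicates 1 and 2 also differed from each other in Xist (8.68 and 38.8 CPM) and Ddx3y (89.1 and 23.8 CPM). In heterozygous-labelled libraries Xist was at 72.3 and 67.5 CPM and Ddx3y at 20.5 and 12.1 CPM. Both KO-labelled libraries lay below for Xist and above for Ddx3y, and neither gene passed (edgeR adjusted p = 0.233 and 0.176). Every library held both transcripts, and the part of sex in the results below was not tested. The 18 cycling cell markers, none of them a member, summed to 184 and 279 CPM in KO-labelled libraries, against 808 and 965 CPM in heterozygous-labelled ones. The part of these markers in the results below was not tested.

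The sequences just upstream of the start are shown for members whose RNA fell, Ube2t and Rad51ap1, and for members whose log2 fold change was nearest 0 in each direction, Atr and Fancm, so that called members can be read beside members with almost no difference. Each is the 250 bases before the start, read 5′ to 3′ on the gene's strand, from RefSeq (GRCm38.p6). Capitals mark matches on either strand to CCAAT, to the cell cycle homology region searched as TTTGAA or TTCGAA, to the E-box CACGTG, or to E2F sites searched as TTTCCCGC, TTTCGCGC, TTTGCCGC or TTTGGCGC. No searched motif overlapped another in these windows. The stretches lie at chr1:134962315-134962564 (plus strand) for Ube2t, chr6:126939588-126939837 (minus strand) for Rad51ap1, chr9:95857347-95857596 (plus strand) for Atr and chr12:65075353-65075602 (plus strand) for Fancm.
Ube2t: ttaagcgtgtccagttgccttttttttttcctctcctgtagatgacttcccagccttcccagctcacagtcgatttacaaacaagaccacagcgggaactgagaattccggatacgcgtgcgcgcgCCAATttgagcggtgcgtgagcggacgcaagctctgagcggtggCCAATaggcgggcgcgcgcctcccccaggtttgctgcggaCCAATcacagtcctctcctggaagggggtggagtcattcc
Rad51ap1: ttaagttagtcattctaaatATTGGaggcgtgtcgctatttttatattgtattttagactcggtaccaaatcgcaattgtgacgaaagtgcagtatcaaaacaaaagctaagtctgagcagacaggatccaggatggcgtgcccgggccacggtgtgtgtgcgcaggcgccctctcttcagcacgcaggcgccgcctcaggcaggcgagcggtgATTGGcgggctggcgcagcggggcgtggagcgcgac
Atr: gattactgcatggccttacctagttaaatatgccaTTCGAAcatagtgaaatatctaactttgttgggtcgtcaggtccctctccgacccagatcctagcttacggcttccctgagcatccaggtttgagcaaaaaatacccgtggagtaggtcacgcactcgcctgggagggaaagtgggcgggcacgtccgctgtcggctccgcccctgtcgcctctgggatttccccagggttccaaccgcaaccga
Fancm: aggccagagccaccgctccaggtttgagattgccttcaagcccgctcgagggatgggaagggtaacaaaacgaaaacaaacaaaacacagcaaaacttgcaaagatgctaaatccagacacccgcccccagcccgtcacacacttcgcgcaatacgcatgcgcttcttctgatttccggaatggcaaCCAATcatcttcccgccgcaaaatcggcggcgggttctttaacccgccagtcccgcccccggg

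In this stretch Ube2t held 3 CCAAT matches and Rad51ap1 held 2 in reverse (ATTGG), Fancm held 1, and Atr held 1 TTCGAA match. In full windows from 250 bases before to 50 after the start, 29 members had a single entry and could be compared with 8564 tested genes that had one. An E2F match was present in 6 of 29 members (20.7%) and in 4.18% of those genes. A CCAAT match was present in 18 of 29 members (62.1%) and in 38.7% of the genes, a cell cycle homology region in 3 (10.3%) and in 13.3%, and an E-box, the element that BMAL1 and CLOCK bind, in 2 (6.90%) and in 9.98%. The 18 members with a CCAAT match had a median log2 fold change of -0.64, and the 11 without had -0.72. Values under -1 were found for 6 of the 18 and for 4 of the 11. The 2 members with an E-box were Eme1 and Slx4. The RefSeq start of Eme1 lies 221 bases inside the gene as GENCODE gives it, so its window is not printed.

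The 6 members with an E2F match were Fancg, Bard1, Brca2, Chek2, Clspn and Topbp1. Each match is printed in capitals with 10 bases on each side, on the gene's strand. Those of Fancg and Clspn lie inside the gene as GENCODE gives it, and that of Clspn begins 21 bases after the RefSeq start.
Fancg, chr4:43010336-43010363, minus strand: ttcttttcagTTTCCCGCggaaccgtct
Bard1, chr1:71103164-71103191, minus strand: cgccgctcagTTTCCCGCtcaggaagtt
Brca2, chr5:150522443-150522470, plus strand: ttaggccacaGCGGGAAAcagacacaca
Chek2, chr5:110839821-110839848, plus strand: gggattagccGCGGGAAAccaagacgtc
Clspn, chr4:126556991-126557018, plus strand: ccgcgtctggGCGCGAAAgctcgaactt
Topbp1, chr9:103305188-103305215, plus strand: cgctcggttgGCGCGAAAgtcggttccc

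These 6 had log2 fold changes of -6.21 to -0.45 with a median of -0.89, and the 23 members whose window held no match ran from -2.54 to 0.84 with a median of -0.21. Log2 fold changes under -1 were found for 2 of the 6, Bard1 and Clspn, and for 8 of the 23. The value of -6.21 is that of Bard1, which had 1 and 0 counts in KO-labelled libraries, and it depends on the prior count. Ube2t, Rad51ap1 and Eme1, which fell past the threshold and had a window, held no E2F match in these letters. Over all tested genes with a window the medians were -0.059 with a match and 0.017 without. A match to these letters is a description and not a site shown to be bound.

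RNA of 4 of the 42 genes fell in KO-labelled libraries: Fancd2, Ube2t, Rad51ap1 and Eme1. None rose and 38 did not pass. These 4 make 9.52% of the members, where 1.34% of 14649 genes tested fell and 1.2% rose (edgeR's quasi-likelihood test, Benjamini-Hochberg adjusted p under 0.05 over all genes). Their levels were lower by 3.91-fold for Rad51ap1 to 14.7-fold for Fancd2. The members' median log2 fold change was -0.73, beside 0.024 over all genes tested, and 34 members had a lower and 8 a higher fitted level in KO-labelled libraries. Of 18 cycling cell markers, 12 fell as well, and their part was not tested. In bulk RNA, fewer cells that express a gene and less of its RNA per cell cannot be told apart.

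Each KO-labelled library was under each heterozygous-labelled one for 25 members (59.5%), and 23.8% of all tested genes did so. For 2 members, Rad51c and Mus81, both KO-labelled libraries lay above, as they did for 25.3% of all tested genes. A log2 fold change under -1 was fitted for 16 members (38.1%), beside 4.65% of all genes, and no member exceeded 1. At an unadjusted p under 0.05, 18 members were lower and 0 higher in edgeR's test, where 7.75% of all genes were lower and 9.12% higher. DESeq2 called 16 members lower and 0 higher, beside 3.82% and 4.23% of all genes. By limma-voom 3 members were lower and 0 higher, beside 1.49% and 1.12% of all genes. The edgeR count changed when 1 library was left out: it was 0 without heterozygous replicate 2 and 1 (Fancd2) without heterozygous replicate 1, and it was 7 without KO replicate 1 and 9 without KO replicate 2. Without a heterozygous library the spread comes from the KO pair alone. The log2 fold change of Ube2t then stayed close, at -2.12 and -1.96 without heterozygous replicates 1 and 2, beside -2.03 with all libraries. Others moved more: Eme1 went from -2.54 to -2.91 and -2.09, and Timeless from -1.92 to -2.32 and -1.40.

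**Figure D1:**
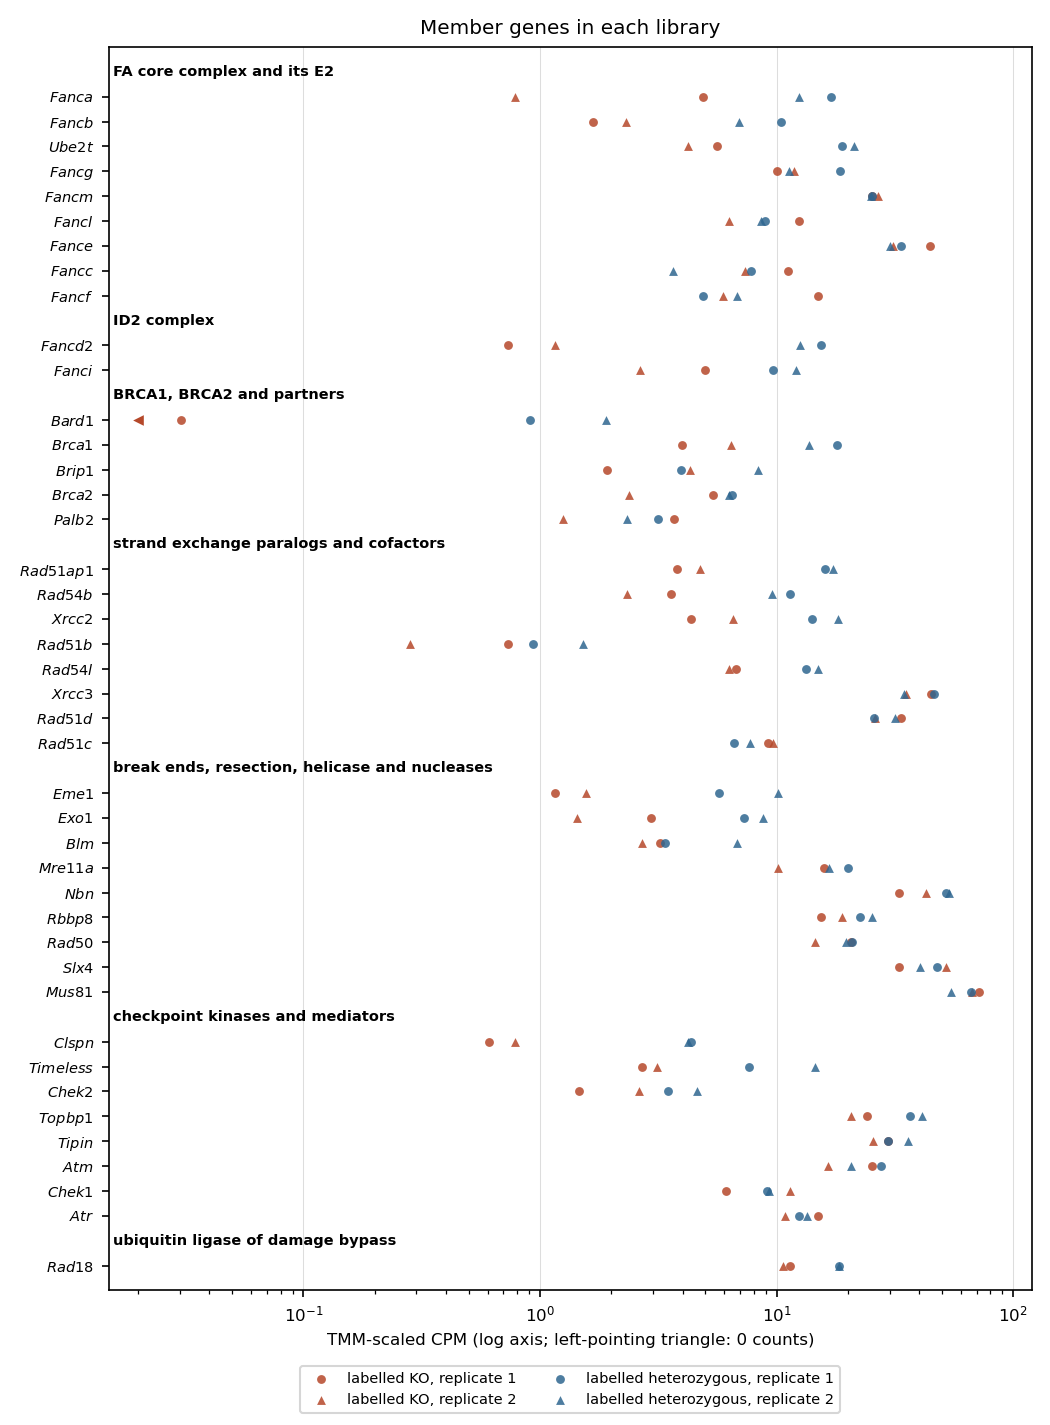
Level of each member in each library, in TMM-scaled CPM on a log axis, with genes ordered by role and then by log2 fold change. Circles are replicate 1 and upright triangles replicate 2, in red for KO-labelled libraries and blue for heterozygous-labelled ones, and a left-pointing triangle stands for 0 counts. Fancd2, Clspn and Eme1 show the 2 red points well left of the blue ones, while Fancm and Atr lie together.

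The members split within the core complex and its E2. Ube2t, the E2 enzyme that works with FANCL (chr1:134962565-134974162, plus strand, GRCm38), was at 5.57 and 4.22 CPM in KO-labelled libraries, against 18.95 and 21.2 CPM in heterozygous-labelled ones. The groups did not overlap, and Ube2t fell by 2.03 on the log2 scale (SE 0.29, edgeR adjusted p = 0.0203). Its adjusted p was 0.0524 without heterozygous replicate 1 and 0.125 without heterozygous replicate 2. Fancl, the ligase itself, was at 12.5 and 6.31 CPM in KO-labelled libraries, against 8.93 and 8.63 CPM in heterozygous-labelled ones and did not pass (log2 change 0.098, SE 0.39). Fancm, a DNA translocase that anchors the complex at forks, was nearest to 0 of this group, with 25.2 and 26.9 CPM in KO-labelled libraries and 25.4 and 25.0 CPM in heterozygous-labelled ones (0.048, SE 0.19).

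Fancb and Fanca, subunits of the core complex, had lower levels that did not pass. Fancb was at 1.67 and 2.31 CPM in KO-labelled libraries, against 10.4 and 6.96 CPM in heterozygous-labelled ones (log2 change -2.12, SE 0.43, edgeR adjusted p = 0.0569). Fanca was at 4.87 and 0.781 CPM in KO-labelled libraries, against 16.9 and 12.5 CPM in heterozygous-labelled ones (-2.38, SE 0.73, adjusted p = 0.166). KO replicates 1 and 2 differed 6.24-fold in Fanca. Its log2 fold change was -4.25 without KO replicate 1 and -1.595 without KO replicate 2. It was -2.145 without heterozygous replicate 1 and -2.585 without heterozygous replicate 2. The other subunits overlapped between the groups, with log2 fold changes of -0.45 for Fancg, 0.24 for Fance, 0.69 for Fancc and 0.84 for Fancf. Fancf was high in KO replicate 1 alone, at 14.9 CPM, beside 5.93 CPM in KO replicate 2 and 4.88 and 6.81 CPM in the heterozygous libraries. Over the 9 genes of this group, 1 fell, 0 rose, 3 were lower and 0 higher at an unadjusted p under 0.05, and the median log2 fold change was 0.048.

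Fancd2, which encodes a subunit of the complex that receives the ubiquitin, changed most among the members that passed. It had 24 and 37 counts in KO-labelled libraries, against 594 and 414 in heterozygous-labelled ones, or 0.731 and 1.16 CPM in KO-labelled libraries, against 15.3 and 12.5 CPM in heterozygous-labelled ones. The groups were far apart (log2 change -3.88, SE 0.41, edgeR adjusted p = 0.0129), and the fold change ran from -4.25 to -3.61 when each library was left out, with an adjusted p of 0.0526 without heterozygous replicate 2. Fancd2 lies at chr6:113531682-113597017 (plus strand, GRCm38), and its exons overlap those of Fancd2os, which is not analysed here. Fanci, its partner, was at 4.99 and 2.65 CPM in KO-labelled libraries, against 9.63 and 12.02 CPM in heterozygous-labelled ones, and did not pass (-1.50, SE 0.41, adjusted p = 0.126). Both Fanci values under the KO label were below both others.

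None of the 5 genes of BRCA1, BRCA2 and their partners passed in edgeR's test, while 2 were lower and 0 higher at an unadjusted p under 0.05, DESeq2 called 2 lower and limma-voom 0. Brca1, a ubiquitin ligase that promotes resection, was at 3.99 and 6.43 CPM in KO-labelled libraries, against 17.97 and 13.7 CPM in heterozygous-labelled ones (log2 change -1.60, SE 0.35, edgeR adjusted p = 0.0697). Bard1, whose protein pairs with BRCA1, had 1 and 0 counts in KO-labelled libraries, against 35 and 63 in heterozygous-labelled ones. Its scaled level was 88.6 times as high under the heterozygous label, and the exact binomial 95% interval, for counting error only, was 15.5 to 3530, and its adjusted p was 0.0723. Bard1 entered the test through the heterozygous libraries alone, and its fitted log2 fold change of -6.21 depends on the prior count and is no bound.

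The other genes of this group had fitted values closer to 0 than Brca1, and these moved with single libraries. Brca2, a central mediator of recombination, was at 5.39 and 2.37 CPM in KO-labelled libraries, against 6.48 and 6.30 CPM in heterozygous-labelled ones (log2 change -0.72), and Brip1, a helicase that binds BRCA1, had -0.98. Leaving out each library in turn gave -1.45 to -0.25 for Brca2 and -1.68 to -0.35 for Brip1. Palb2, which bridges BRCA1 and BRCA2, was at 3.68 and 1.25 CPM in KO-labelled libraries, against 3.15 and 2.33 CPM in heterozygous-labelled ones, nearest to 0 in this group (-0.15, SE 0.65). Its KO replicates lay on either side of the heterozygous libraries.

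Rad51ap1 was the only one of 8 paralogs and cofactors of strand exchange that passed. Its protein stimulates strand pairing, and the gene lies at chr6:126923050-126939587 (minus strand). It was at 3.81 and 4.75 CPM in KO-labelled libraries, against 16.1 and 17.4 CPM in heterozygous-labelled ones (log2 change -1.97, SE 0.30, edgeR adjusted p = 0.0232). The groups did not overlap and replicates lay close together, and the adjusted p was 0.0735 without heterozygous replicate 1 and 0.146 without heterozygous replicate 2. Rad54b, a DNA translocase of recombination, was at 3.59 and 2.34 CPM in KO-labelled libraries, against 11.3 and 9.60 CPM in heterozygous-labelled ones (-1.82, SE 0.38, adjusted p = 0.0625), and Rad54l had a log2 fold change of -1.11 (adjusted p = 0.102).

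The paralogs Rad51b, Rad51c, Rad51d, Xrcc2 and Xrcc3 did not share a direction. Xrcc2, which joins RAD51B, RAD51C and RAD51D in a complex, was at 4.35 and 6.56 CPM in KO-labelled libraries, against 14.1 and 18.2 CPM in heterozygous-labelled ones (log2 change -1.56, SE 0.33, edgeR adjusted p = 0.0644). Its partners stood at -1.26 for Rad51b, which had 9 to 50 counts per library, 0.39 for Rad51c and 0.052 for Rad51d. Xrcc3, which pairs with RAD51C, was at 44.8 and 35.2 CPM in KO-labelled libraries and 46.4 and 34.7 CPM in heterozygous-labelled ones, nearest to 0 of the group (-0.020, SE 0.22). Both KO-labelled libraries lay below for Rad51b and Xrcc2 and above for Rad51c, at 9.19 and 9.65 CPM in KO-labelled libraries against 6.58 and 7.75 CPM in heterozygous-labelled ones, and for Xrcc3 and Rad51d the groups overlapped.

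**Figure D2:**
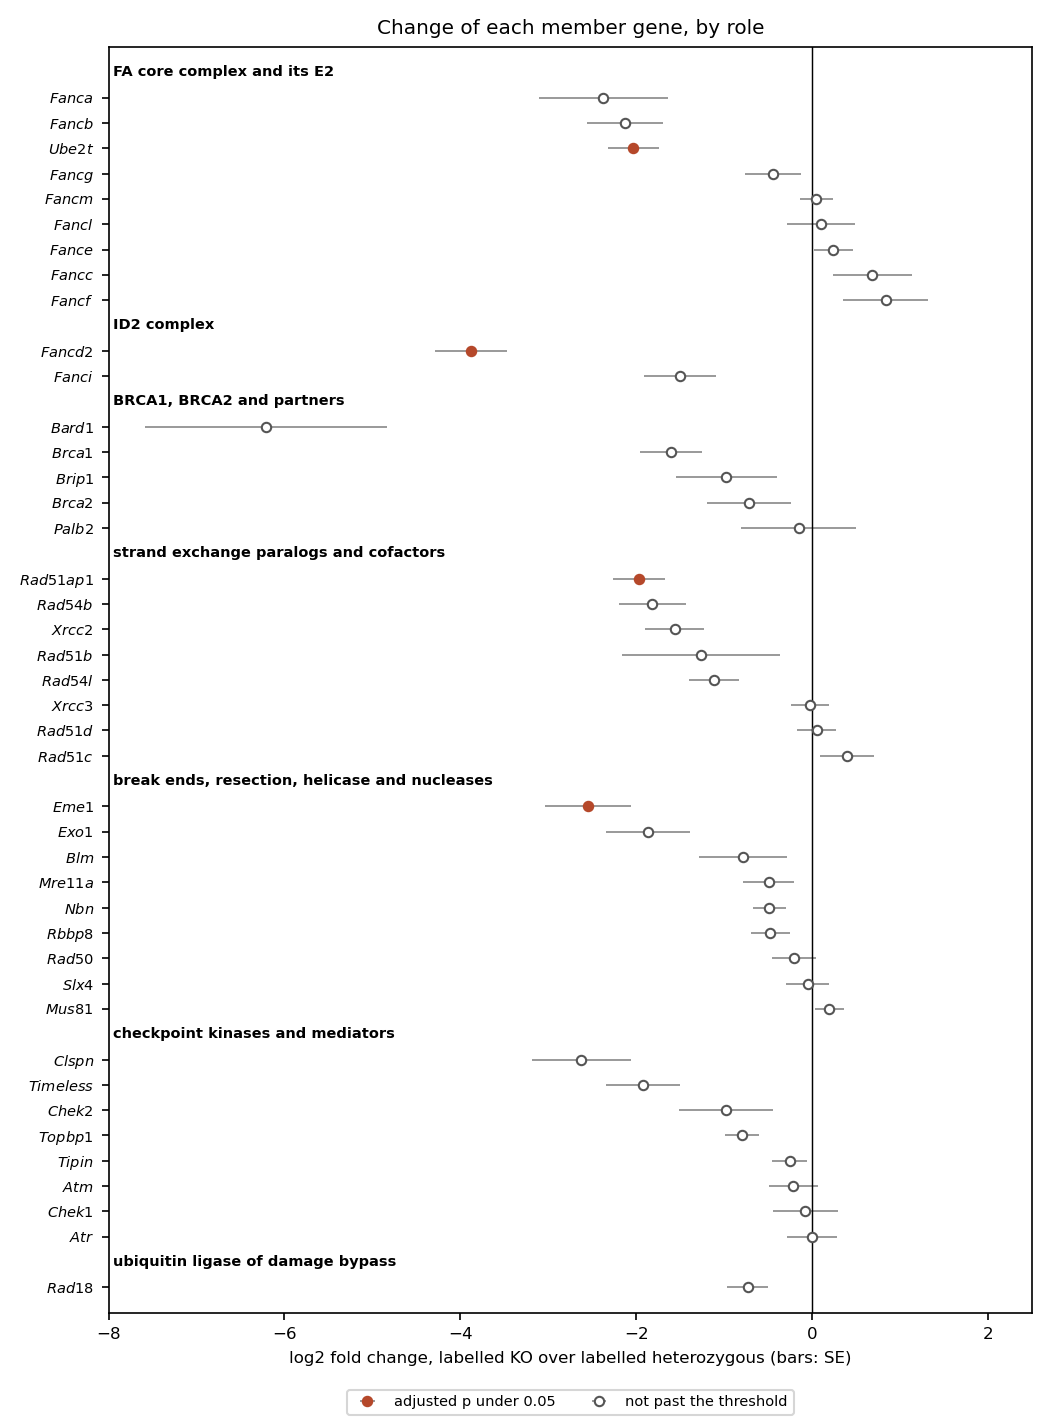
Log2 fold change of each member, labelled KO over labelled heterozygous, with bars for the SE of the edgeR fit and genes ordered by role. Filled points passed an adjusted p of 0.05. The 4 filled points, Ube2t, Fancd2, Rad51ap1 and Eme1, lie between -3.88 and -1.97, and 8 members lie above 0.

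Among genes of break ends, resection and nucleases, 1 of 9 passed. Eme1, the partner that the nuclease MUS81 needs for cutting joint molecules and stalled forks (chr11:94644996-94653964, minus strand), was at 1.16 and 1.56 CPM in KO-labelled libraries, against 5.73 and 10.2 CPM in heterozygous-labelled ones (log2 change -2.54, SE 0.49, edgeR adjusted p = 0.0481). The heterozygous libraries were both higher and differed from each other. This call was near the threshold, and its adjusted p was 0.0639 without KO replicate 1, 0.0625 without heterozygous replicate 1, 0.414 without heterozygous replicate 2 and 0.0844 by limma-voom. Its exons overlap those of Lrrc59 (-0.56, adjusted p = 0.192) and Mrpl27 (0.017), which cannot be separated without strand. Mus81 was at 71.4 and 67.0 CPM in KO-labelled libraries, against 66.4 and 54.4 CPM in heterozygous-labelled ones, and did not pass (0.20, SE 0.17).

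Exo1, an exonuclease of resection, was at 2.95 and 1.44 CPM in KO-labelled libraries, against 7.28 and 8.72 CPM in heterozygous-labelled ones (log2 change -1.86, SE 0.48, edgeR adjusted p = 0.105). The sensor of breaks formed by MRE11, RAD50 and NBN gave small negative values, with -0.49 for Mre11a, -0.20 for Rad50 and -0.49 for Nbn. Nbn was at 32.8 and 42.7 CPM in KO-labelled libraries, against 52.0 and 53.7 CPM in heterozygous-labelled ones (SE 0.19, adjusted p = 0.256). Rbbp8, which encodes the resection factor CtIP, stood at -0.48 and Blm, a helicase, at -0.78. Slx4, the scaffold that holds MUS81 and other nucleases, was at 32.9 and 52.0 CPM in KO-labelled libraries, against 47.6 and 40.2 CPM in heterozygous-labelled ones, nearest to 0 (-0.047, SE 0.25).

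None of the 8 checkpoint genes passed in edgeR's test, while all 8 had a negative fitted value, 3 were lower and 0 higher at an unadjusted p under 0.05, DESeq2 called 3 lower and limma-voom 0. Clspn, which encodes the adaptor through which ATR activates CHK1, was at 0.609 and 0.781 CPM in KO-labelled libraries, against 4.36 and 4.24 CPM in heterozygous-labelled ones (log2 change -2.62, SE 0.56, edgeR adjusted p = 0.0656). Timeless, a fork protection gene named for a clock gene of Drosophila, was at 2.71 and 3.12 CPM in KO-labelled libraries, against 7.64 and 14.5 CPM in heterozygous-labelled ones (-1.92, SE 0.42, adjusted p = 0.0708). For both genes the groups were apart, at low counts for Clspn. Topbp1, an activator of ATR, was at 24.0 and 20.7 CPM in KO-labelled libraries, against 36.7 and 41.0 CPM in heterozygous-labelled ones (-0.80, SE 0.19, adjusted p = 0.0889).

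Among the kinases, Atr, Atm and Chek1 overlapped between the groups and Chek2 did not. Atr was at 14.9 and 10.8 CPM in KO-labelled libraries, against 12.4 and 13.4 CPM in heterozygous-labelled ones (log2 change -0.00084, SE 0.28), and Atm had -0.21. Chek1, which encodes CHK1, was at 6.12 and 11.4 CPM in KO-labelled libraries, against 9.14 and 9.29 CPM in heterozygous-labelled ones (-0.076, SE 0.37), and did not pass. Chek2, which encodes CHK2, was at 1.46 and 2.62 CPM in KO-labelled libraries, against 3.46 and 4.60 CPM in heterozygous-labelled ones, and did not pass either (-0.98, SE 0.54, adjusted p = 0.421). Tipin, the partner of TIMELESS, stood at -0.26. Rad18, the ubiquitin ligase of damage bypass, was at 11.4 and 10.7 CPM in KO-labelled libraries, against 18.3 and 18.4 CPM in heterozygous-labelled ones, with tight replicates, and did not pass (-0.73, SE 0.24, adjusted p = 0.182).

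Several known protein partners differed in their RNA values. The following ratios were formed after the values had been seen and carry no test. The CPM ratio of Fancd2 to Fanci was 0.146 and 0.435 in KO-labelled libraries, against 1.59 and 1.04 in heterozygous-labelled ones. Eme1 to Mus81 gave 0.0162 and 0.0233 in KO-labelled libraries, against 0.0863 and 0.187 in heterozygous-labelled ones. Timeless to Tipin gave 0.0920 and 0.123 under the KO label and 0.259 and 0.402 under the heterozygous label. Clspn to Chek1 gave 0.0995 and 0.0687 in KO-labelled libraries and 0.477 and 0.456 in heterozygous-labelled ones. In each of these pairs the ratio was lower in both KO-labelled libraries. Fanci and Tipin were themselves lower in both, Mus81 was higher in both and Chek1 overlapped. The first gene of each pair had the lower log2 fold change, so a lower ratio largely follows from the choice of pairs. Ratios of Ube2t to Fancl, Xrcc2 to Rad51d and Brca1 to Palb2 were also formed and were lower too. Brca1 to Palb2 gave 1.08 and 5.15 in KO-labelled libraries, against 5.70 and 5.86 in heterozygous-labelled ones.

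**Figure D3:**
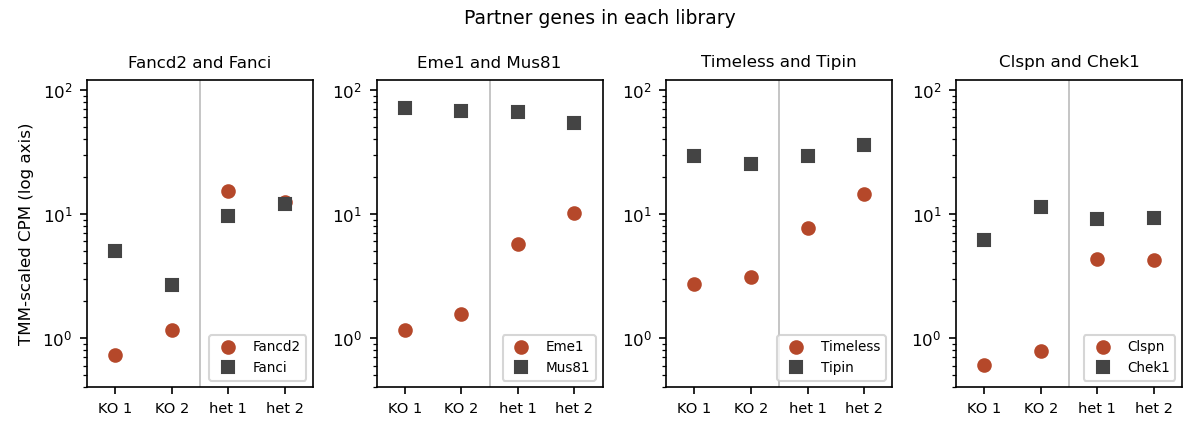
Levels of 4 pairs of partners in each library, in TMM-scaled CPM on a log axis, with KO-labelled libraries left of the line and heterozygous-labelled ones (het) right of it. Circles mark Fancd2, Eme1, Timeless and Clspn and squares their partners. Mus81 stays between 54.4 and 71.4 CPM, while Eme1 is at 1.56 CPM or less in KO-labelled libraries.

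Per kilobase of exon, Mus81 was the most abundant member in both groups, at 33.5 CPM per kb in KO-labelled libraries and 29.2 CPM per kb in heterozygous-labelled ones. Fance, Xrcc3, Nbn and Tipin were also among the highest on this scale, at 18.6, 16.5, 14.9 and 14.9 in KO-labelled libraries and 15.8, 16.7, 20.9 and 17.7 in heterozygous-labelled ones. Ube2t ranked 10 of 42 in KO-labelled libraries, at 4.38 CPM per kb, and 3 of 42 in heterozygous-labelled ones, at 17.97 CPM per kb. Fancd2 ranked 39 under the KO label, at 0.171 CPM per kb, and 23 under the heterozygous label, at 2.53 CPM per kb. Bard1 was the least abundant under both labels. Replicates differed more than 2-fold for 8 members under the KO label and for 4 under the heterozygous label, and 25 members were higher in KO replicate 1 than in KO replicate 2.

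The cycling cell markers moved in the same direction, 3.83-fold in their sum, with 12 of 18 lower past the threshold and a median log2 fold change of -2.30. Mki67, for example, was at 20.2 and 31.7 CPM in KO-labelled libraries, against 98.5 and 156 CPM in heterozygous-labelled ones. As a description chosen after the values had been seen, each member was divided by that sum in the same library. Markers with high levels, such as Top2a and Mki67, weigh most in the sum. Log2 fold changes of the markers ran from -2.64 for Ccna2 to -0.39 for Pcna, so the ratios depend on which markers are summed. Per 100 CPM of cycling markers, Ube2t was at 3.03 and 1.51 in KO-labelled libraries, against 2.35 and 2.19 in heterozygous-labelled ones, and Rad51ap1 was at 2.07 and 1.70 in KO-labelled libraries, against 1.99 and 1.80 in heterozygous-labelled ones, so both overlapped between the groups. Fancd2 was at 0.397 and 0.414 in KO-labelled libraries, against 1.90 and 1.30 in heterozygous-labelled ones, and so lay lower. On this scale 4 members lay below in both KO-labelled libraries (Fancd2, Bard1, Eme1 and Clspn), 10 overlapped and 28 lay above. Over all tested genes 0.881% lay below and 93.5% above, because the sum divided by is itself lower under the KO label and a gene of equal level then lies above.

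Other genes of the same processes were read from lists that do not include the members. Of 59 tested genes of the Fanconi, recombination and checkpoint network reported here, 1 fell, 58 did not pass and 0 rose, with a median log2 fold change of -0.12. At an unadjusted p under 0.05, 10 were lower and 0 higher, DESeq2 called 5 lower and 0 higher, limma-voom called 0, and both KO-labelled libraries lay below for 22 (37.3%). Gen1, a nuclease of joint molecules, had -2.98 (adjusted p = 0.0677) and Fignl1 -1.79 (adjusted p = 0.0669). The gene that fell was Polq, the polymerase of a microhomology-based end joining, at 0.274 and 0.781 CPM in KO-labelled libraries, against 8.96 and 5.93 CPM in heterozygous-labelled ones (-3.81, SE 0.64, adjusted p = 0.0311). Its counts were 9 and 25 under the KO label and 347 and 196 under the heterozygous label. Both heterozygous libraries met the filter's minimum count of 10, and KO replicate 1 did not. Genes of the canonical end joining pathway did not pass: 0 of 10 in edgeR's test, 0 at an unadjusted p under 0.05, 0 by DESeq2 and 0 by limma-voom, with log2 fold changes of -0.38 to 0.29. Xrcc5 (-0.38), Xrcc4 (0.25) and Prkdc (0.26) had the smallest p-values there. Of 26 tested genes of excision and mismatch repair, 1 fell, Neil3, a glycosylase that also acts on crosslinks, at 4.87 and 5.995 CPM in KO-labelled libraries against 28.7 and 27.2 CPM in heterozygous-labelled ones (-2.36, SE 0.25, adjusted p = 0.0129), and the median was -0.063. No test compared these lists with the members.

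**Figure D4:**
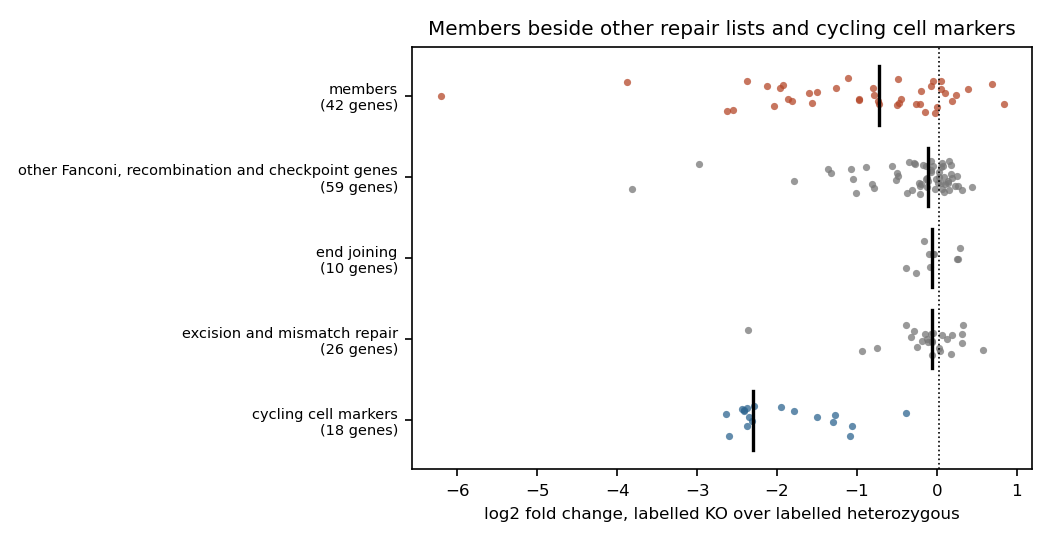
Log2 fold changes, labelled KO over labelled heterozygous, of the members, of 3 other repair lists and of the cycling cell markers, 1 point per tested gene, spread vertically at random for visibility. Black bars are medians and the dotted line is the median of all genes tested, 0.024. The members' median of -0.73 lies between that of the end joining list (-0.066) and that of the cycling cell markers (-2.30).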

How the data were processed

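RNA extraction used RNeasy Plus Micro, and SMART-Seq v4 low-input chemistry, which does not mark strand, gave the libraries, per the labels' protocols. STAR, edgeR and the mm10 build appear in the submitters' processing notes; the counter, annotation and versions: not given in the sources used here. Deposited by the authors were raw read counts per gene symbol; a scaled table was not used here. The counts were filtered (filterByExpr, minimum count 10, minimum total 15), TMM-scaled and tested with edgeR 4.0.16 (glmQLFit, glmQLFTest; R 4.3.3) in a model of group alone on 4 libraries and 14649 genes, 2-sided, with Benjamini-Hochberg adjustment at 0.05. The edgeR test was also run on counts simulated from the means and dispersions of this fit. That run filtered on a total of 15 or more alone, unlike the main fit, and its recovery is not reported here. CPM are TMM-scaled, coordinates and exon lengths are from GENCODE M21 (GRCm38), and promoter windows are from RefSeq. The members, lists and tests were chosen with earlier results of these data known. Named in full are members past the threshold and, per role, the 2 next by p and the one nearest 0. Exons of 8 members (Fanca, Fancl, Fancd2, Fanci, Rad54l, Rad54b, Mre11a, Eme1) overlap another protein-coding gene, so their counts are uncertain to that extent. Replicates differed by more than sampling noise (chi-square per degree of freedom 58.1 and 38.4). DESeq2 1.42.0 and limma-voom (limma 3.58.1) were alternatives. Counting intervals cover counting error only. The results of 1 gene of the other pathway lists are not reported here.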

Additional observations from a re-analysis of the deposited data

How the results depend on the processing

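The count of members lower in the libraries labelled KO, 4 in the edgeR fit, was 4 under RLE scaling, upper-quartile scaling, library sizes only and a total of 15 counts, 6 of 34 at a mean of 5 CPM or more, and 3 by limma-voom. It was 13 with no filter, 16 by DESeq2, 12 at an adjusted p of 0.1 and 8 with a replicate block, and 0 to 9 when each library was left out. No member was called higher in any of these. The replicate numbers did not pair the libraries (correlation of deviations -0.019), so the block only describes the fit. The members' median log2 fold change was -0.44 at a mean of 5 CPM or more, where 8 low members, Bard1 and Eme1 among them, were left out, and otherwise stayed within -0.84 to -0.68. Eme1 was thus not tested under that filter, and the 6 calls there held 3 of the 4 main ones. Across the scalings and filters, signs turned for Xrcc3 and Atr, both near 0: Xrcc3 was 0.016 with library sizes only and 0.017 at a mean of 5 CPM, and Atr was 0.018 with upper-quartile scaling, 0.044 with library sizes only and 0.037 at a mean of 5 CPM. Leaving out each library also turned signs, including that of Fancf, the highest member at 0.84 (without KO replicate 1), and gave -0.062 to 0.47 for Fance, -0.0041 to 1.35 for Fancf, -0.50 to 0.50 for Fancl, -0.0036 to 0.070 for Fancm, -1.16 to 0.42 for Palb2, -0.17 to 0.22 for Rad51d, -0.23 to 0.20 for Xrcc3, -0.51 to 0.026 for Rad50, -0.42 to 0.22 for Slx4, -0.58 to 0.062 for Atm, -0.28 to 0.21 for Atr and -0.59 to 0.28 for Chek1. With no change of sign it gave -1.21 to -0.21 for Blm, -0.77 to -0.051 for Fancg, -2.13 to -0.74 for Rad51b and 0.23 to 1.33 for Fancc. The causes were not tested. With 2 libraries per group, changes of low members such as Bard1, Rad51b and Clspn are limited by counts.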
